A study of Mus musculus with 3 samples.

Results

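The regions described here are stretches of the mouse genome rich in both trimethylated lysine 4 and trimethylated lysine 27 of histone H3 (H3K4me3 and H3K27me3) in mouse embryonic fibroblasts. They were obtained by intersecting the deposited H3K4me3-rich regions with the deposited H3K27me3-rich regions on mm9, and an intersection of 200 bp or longer was kept. This gave 14326 regions out of 44075 segments rich in either or both marks, next to 9543 segments with H3K4me3 only and 20206 with H3K27me3 only. The shortest regions kept were 203, 215 and 216 bp long, and 9 shorter intersections were left out, the longest of them 190, 179 and 156 bp.

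NFI binding was measured in these regions by ChIP-Seq, in which DNA bound by a protein is precipitated with an antibody and sequenced. There were 3 libraries, namely NFI ChIP from wild-type fibroblasts, NFI ChIP from NFI-C knock-out fibroblasts, and input DNA of wild-type fibroblasts sequenced without antibody. All cells were primary fibroblasts of C57BL/6 embryos of 14.5 days at passages 6-7, the knock-out cells lacked NFI-C through an insertion in its gene, and the antibody was NFI (H300) sc-5567. It is directed at the NFI group as a whole, so that it can also bind the NFI proteins other than NFI-C. For the library labelled knock-out a description line names wild-type cells, and its group was taken from its title instead. Each condition had 1 library, so no test across samples was possible, all values describe these libraries, and the intervals given are 95% intervals that cover counting error only. The marks came from another study of fibroblasts of the same kind and the lamina domains from human lung fibroblasts, so that neither was measured in the cells of these libraries.

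H3K4me3 is deposited at the promoters of active and poised genes, whereas H3K27me3 is laid down by Polycomb repressive complex 2 over silent genes. Promoters that carry both are called bivalent and were described first at developmental regulators in embryonic stem cells. NFI proteins (NFI-A, NFI-B, NFI-C and NFI-X) bind as dimers to a palindrome made of the arms TTGGC and GCCAA, and act as activators or repressors in many tissues, among them connective tissue.

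The sequences shown first are the matches to the NFI palindrome in these regions, with at most 1 mismatch at its 12 fixed positions, around which the wild-type ChIP had the most tags. A tag is a uniquely mapped read counted by its 5′ end, at most 1 per position and strand, and tags were counted in 300 bp around each match. The capitals mark the match, and the plus strand of mm9 is printed with 15 bases on both sides. The place of each match was taken from GENCODE vM1, and 3 of the 12 matches ranked highest are not printed.
Bahcc1 upstream, chr11:120092983-120093027: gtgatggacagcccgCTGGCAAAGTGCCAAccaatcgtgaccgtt
Fam50b upstream, chr13:34800994-34801038: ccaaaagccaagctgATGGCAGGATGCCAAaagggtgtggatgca
Ctnnb1 upstream, chr9:120828021-120828065: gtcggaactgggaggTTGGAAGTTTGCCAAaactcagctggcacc
Cdk18 upstream, chr1:134046844-134046888: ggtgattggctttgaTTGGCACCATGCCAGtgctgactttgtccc
Scml4 intron, chr10:42583471-42583515: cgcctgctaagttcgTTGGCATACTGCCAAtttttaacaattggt
Nptx1 upstream, chr11:119412569-119412613: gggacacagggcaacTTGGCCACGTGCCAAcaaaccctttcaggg
Atxn7l1 intron, chr12:33970782-33970826: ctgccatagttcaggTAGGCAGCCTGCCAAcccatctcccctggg
6430527G18Rik upstream, chr12:88235425-88235469: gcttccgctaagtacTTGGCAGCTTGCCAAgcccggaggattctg
Slc38a2 region, chr15:96507194-96507238: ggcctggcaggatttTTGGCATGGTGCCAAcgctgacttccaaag

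The matches in Scml4, upstream of 6430527G18Rik and in the Slc38a2 region had no mismatch. The others differed by T1C (Bahcc1), T1A (Fam50b), C5A (Ctnnb1), A15G (Cdk18), A6C (Nptx1) and T2A (Atxn7l1), counted from 1 at the left end of the match. Tags are given below in the order wild type, knock-out, input. The match 1256 bp upstream of the transcriptional start site (TSS) of Bahcc1 had 12, 7 and 4 tags, and that 25703 bp upstream of Fam50b had 11, 8 and 1. Both were highest in the wild type, with the input lowest. The match 10291 bp upstream of Ctnnb1, which encodes beta-catenin, had 7, 10 and 1 tags and was highest in the knock-out. The Scml4 match, 3317 bp into this gene of a Polycomb-type protein, had 6, 2 and 0 tags. The match 3524 bp upstream of Nptx1, a neuronal pentraxin gene, had 6, 1 and 1, and that in the region of Slc38a2, an amino acid transporter gene, had 6, 1 and 0. In these 3 the knock-out was nearer to the input than to the wild type. The matches upstream of Cdk18 (a kinase gene) and 6430527G18Rik and in Atxn7l1 had 6 wild-type tags each, with 4, 4 and 3 knock-out and 1, 3 and 0 input tags. A match without mismatch in an intron of Mcc, a negative regulator of the cell cycle, had 10, 3 and 0 tags. A match in an intron of Zfp608, a zinc finger protein gene, had 8, 1 and 3 tags, with the knock-out below the input. A match in an untranslated region of Ankrd44 had 6, 8 and 0. The matches were ranked by their wild-type tags, so the wild-type counts are a description, and of all 823 matches 356 (43.3%) had 0 wild-type tags.

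Over all 823 such matches in regions rich in both marks, both ChIP libraries were denser than the input. The matches were found in 766 regions, which is 5.35% of them. In 300 bp around the matches the density was 2.95 times the genome average for the wild type (2.76 to 3.14, 953 tags), 3.06 times for the knock-out (2.86 to 3.26, 924 tags) and 1.42 times for the input (1.31 to 1.54, 563 tags). The wild-type over input tag ratio, each library scaled to its total, was therefore 2.07 (1.86 to 2.30) and that of the knock-out was 2.15 (1.93 to 2.39). The wild-type density was highest in the 300 bp on either side, at 2.62 and 2.50 times the genome average, and the bins farther out, to 1500 bp, lay between 1.34 and 1.59 times. At the 27 matches without mismatch the values were 6.41 (4.98 to 8.13) for the wild type, 5.65 (4.27 to 7.33) for the knock-out and 0.770 (0.369 to 1.42) for the input. Of these 27 matches, 10 lay within 150 bp of a deposited NFI site, against 6 of 15 with H3K4me3 only, 2 of 36 with H3K27me3 only and 6 of 81 with neither mark. In H3K4me3-only segments the ratios to the input at matches with at most 1 mismatch were 2.34 (2.05 to 2.69) for the wild type and 2.10 (1.82 to 2.415) for the knock-out. The enrichment at the palindrome was thus not particular to regions rich in both marks.

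**Figure D1:**
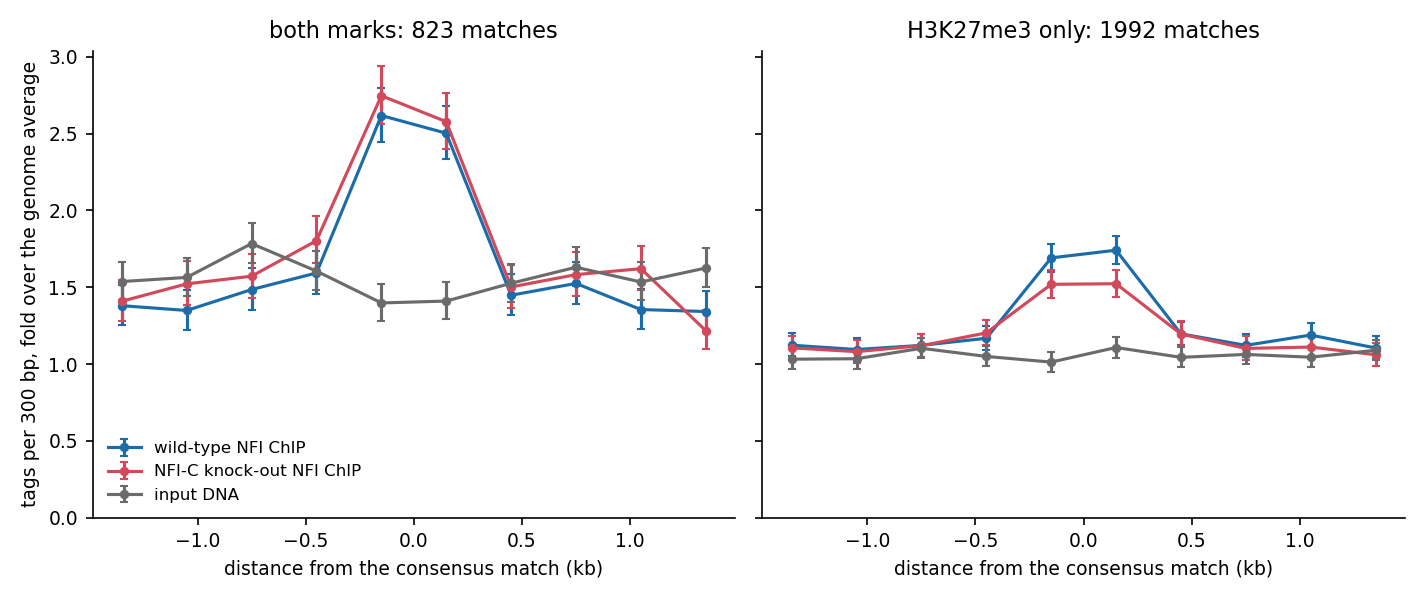
Tags per 300 bp (fold over the genome average, vertical axis) against the distance from matches to the NFI palindrome with at most 1 mismatch (kb, horizontal axis), in regions rich in both marks (left, 823 matches) and in regions with H3K27me3 only (right, 1992 matches), with 95% Poisson intervals as bars. Both ChIP libraries peak within 300 bp of the match, at 2.62 (wild type) and 2.75 (knock-out) on the left and at 1.74 and 1.52 on the right, while the input stays between 1.40 and 1.78 on the left and between 1.01 and 1.11 on the right. Regions with H3K4me3 only, which are not drawn, have a like peak at 2.82 and 2.51.

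The ChIP libraries were also compared with each other at the matches. The wild-type over knock-out ratio at the matches with at most 1 mismatch was 0.964 (0.880 to 1.06) in regions rich in both marks, 1.12 (0.993 to 1.26) in regions with H3K4me3 only and 1.16 (1.08 to 1.26) in regions with H3K27me3 only. The first ratio was 0.829 times the ratio in H3K27me3-only regions (0.736 to 0.932) and 0.816 times that in regions with neither mark (0.727 to 0.915), so these intervals exclude 1. Against H3K4me3-only regions it was 0.863 times (0.745 to 1.00), with the upper bound just below 1. At matches with exactly 2 mismatches the ratio in regions rich in both marks was 0.919 (0.894 to 0.946), with fewer wild-type than knock-out tags. Relative to the other classes the values were 0.952 (0.918 to 0.987) against H3K27me3 only, 0.908 (0.877 to 0.940) against neither mark and 0.937 (0.893 to 0.984) against H3K4me3 only. Over whole regions this comparison already gave 0.9851 (0.9805 to 0.9897), 0.9572 (0.9529 to 0.9614) and 0.9642 (0.9582 to 0.9703) in the same order. The values at the matches thus include a difference of the whole regions, and its part in them was not tested. With 1 library per genotype, a difference between genotypes and a difference between these libraries cannot be told apart. With at most 1 mismatch the palindrome occurred at 2.71 matches per Mb (2.53 to 2.90) in regions rich in both marks, against 2.76 (2.52 to 3.01) with H3K4me3 only, 2.74 (2.62 to 2.86) with H3K27me3 only and 1.98 (1.91 to 2.06) with neither. With at most 2 mismatches the densities were 46.0 (45.3 to 46.8), 42.1 (41.1 to 43.0), 43.9 (43.4 to 44.4) and 38.8 (38.5 to 39.2) in the same order, highest in regions rich in both marks.

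The next sequences are the deposited NFI sites of these regions with the most wild-type tags among sites with fewer than 5 input tags. Each is 100 bases of the plus strand centred on the deposited site, and 2 of the 10 sites ranked highest are not printed. The capitals mark the letters TTGGC or GCCAA, the arms of the NFI palindrome. They do not mark palindrome matches with 2 mismatches. The Hs6st1 and Cdh17 sequences each hold 1 such match, and the other printed sequences hold none.
D7Ertd443e intron, chr7:141479706-141479805: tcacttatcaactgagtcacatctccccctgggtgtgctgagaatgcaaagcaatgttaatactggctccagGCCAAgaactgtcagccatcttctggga
Hs6st1 neighbourhood, chr1:35932247-35932346: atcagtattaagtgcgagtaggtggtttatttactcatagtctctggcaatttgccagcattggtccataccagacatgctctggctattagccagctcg
Irf2bp2 neighbourhood, chr8:129190304-129190403: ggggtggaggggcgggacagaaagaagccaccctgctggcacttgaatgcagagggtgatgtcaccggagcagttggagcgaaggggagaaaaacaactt
Cdh17 neighbourhood, chr4:11747741-11747840: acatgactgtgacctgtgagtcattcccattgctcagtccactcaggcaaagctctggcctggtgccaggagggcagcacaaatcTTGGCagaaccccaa
Tec intron, chr5:73247022-73247121: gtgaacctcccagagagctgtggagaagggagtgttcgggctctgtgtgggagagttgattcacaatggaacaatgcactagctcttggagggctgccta
1700112E06Rik intron, chr14:23749051-23749150: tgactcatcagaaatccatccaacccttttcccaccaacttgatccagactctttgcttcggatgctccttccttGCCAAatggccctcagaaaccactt
Pik3r3 upstream, chr4:115894040-115894139: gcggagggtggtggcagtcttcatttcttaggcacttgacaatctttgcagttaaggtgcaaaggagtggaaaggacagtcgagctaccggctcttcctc
Angptl4 upstream, chr17:33920401-33920500: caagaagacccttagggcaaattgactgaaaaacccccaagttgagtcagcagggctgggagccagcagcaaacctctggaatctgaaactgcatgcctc

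The site in D7Ertd443e lies 55926 bp upstream of Adam12, which encodes a metalloprotease of mesenchymal cells, and had 18, 11 and 1 tags in the order wild type, knock-out, input. The site near Hs6st1, which encodes a heparan sulfate sulfotransferase, had 14, 6 and 0 tags. The site near Irf2bp2 had 13, 7 and 2 tags, and that near Cdh17, a cadherin gene, had 13, 4 and 0. All 4 were also higher in the knock-out than in the input. The intronic site of Tec, which encodes a tyrosine kinase, had 12, 7 and 1 tags and the site in 1700112E06Rik 12, 5 and 2. The site 134 bp upstream of Pik3r3, which encodes a regulatory subunit of phosphoinositide 3-kinase, had 12, 5 and 2. The site 1930 bp upstream of Angptl4, which encodes a secreted inhibitor of lipoprotein lipase, had 10, 8 and 2 tags. A site in an intron of Mcc had 11, 3 and 0. The wild-type and input counts chose these sites, and ties in wild-type tags were ranked by knock-out tags. The knock-out counts are therefore independent of the choice only above 10 wild-type tags, and not at the Angptl4 site.

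Some of these sequences contain TGACTCA or its reverse complement TGAGTCA, the letters bound by AP-1 factors such as Fos and Jun, and this search was therefore added after the sequences had been seen. Both strands were searched in 100 bases around each deposited site. TGACTCA was present at 341 of the 11283 sites in regions rich in both marks, which is 3.02% (2.71 to 3.35, exact binomial interval), against 1.89% of all 100 bp windows of these regions. At sites with 5 or more wild-type and fewer than 5 input tags the share was 4.31% (59 of 1368). With 8 or more wild-type tags it was 12.9% (9 of 70). These counts include the 4 printed sites that prompted the search (D7Ertd443e, Cdh17, 1700112E06Rik and Angptl4), so they are a description only. In H3K4me3-only segments TGACTCA was present at 3.27% of all sites, against 1.86% of windows. With 5 or more and 8 or more wild-type tags, the shares there were 5.52% (39 of 706) and 14.3% (3 of 21). With H3K27me3 only they were 2.52% (26 of 1032) and 12.5% (2 of 16). A higher share at sites with more wild-type tags was thus not particular to regions rich in both marks. In regions rich in both marks the other letters were counted likewise. The arm TTGGC was present at 19.9% of all sites, 25.1% of those with 5 or more and 41.4% of those with 8 or more wild-type tags (both with fewer than 5 input tags), against 15.9% of windows. In the other classes the share at 8 or more wild-type tags was 33.3% (7 of 21, H3K4me3 only), 50% (8 of 16, H3K27me3 only) and 50% (5 of 10, neither mark). Within 1 kb of a TSS 1.49% of the sites in regions rich in both marks had TGACTCA (1.03 to 2.09), compared with 3.40% farther away (3.03 to 3.79). In H3K4me3-only segments these shares were 1.625% and 3.45%. Windows were not split by distance from a TSS, so these shares have no background of their own and cannot be read as a property of the sites. TGACTCA occurred at 61847 places in regions rich in both marks. Around them the ratio to the input was 1.02 (1.00 to 1.03) for the wild type and 1.06 (1.05 to 1.08) for the knock-out, against the values above 2 around the palindrome. The whole regions had 0.770 and 0.792, and their bases farther than 1 kb from a TSS 0.995 and 1.01. Around TGACTCA in H3K4me3-only segments the ratios were 1.16 and 1.15. A match is a description of the letters and not of a bound factor.

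The regions rich in both marks were broad and covered much of the genome. They added up to 303.5 Mb, or 11.4% of the genome, with a median length of 11772 bp, quartiles of 5201 and 26064 bp and a maximum of 441409 bp. The underlying partitions were broad as well, with a median of 16547 bp for H3K4me3 and 38813 bp for H3K27me3, and no H3K4me3-rich regions closer than 5259 bp to each other. Of the H3K4me3-rich bases, 63.1% were also H3K27me3-rich, and of the H3K27me3-rich bases 29.4% were also H3K4me3-rich. The shared bases were 1.62 times the 186.9 Mb that the product of both genome shares gives. In 7317 cases (51.1%) the region was a whole H3K4me3-rich region inside a longer H3K27me3-rich one.

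Most of the regions held promoters. A TSS of a protein-coding gene lay in 9471 of them (66.1%, against 37.4% of all segments rich in either or both marks), 1555 lay in or across a gene without holding a TSS, and 3300 overlapped no protein-coding gene. Together they held a TSS of 12682 of 22367 protein-coding genes (56.7%), and 1 region held those of 18 genes. The median G and C content was 46.1%, compared with 43.2% in H3K4me3-only and 42.7% in H3K27me3-only segments, and the median observed over expected CpG ratio was 0.290 against 0.206 and 0.178.

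The genes in these regions were not restricted to silent developmental regulators. Of developmental genes, 38 of 39 Hox genes, 77 of 80 other homeobox genes, 75 of 85 other developmental transcription factor genes and 93 of 99 genes of signalling ligands, receptors and antagonists had a TSS in such a region. So did 37 of 38 housekeeping genes, 24 of 24 genes of mesenchymal transcription factors such as Runx1 and Prrx1, 31 of 36 genes of fibroblast matrix and surface proteins such as Thbs1 and Col1a2, and 26 of 28 genes of Polycomb subunits. Of other groups, 5 of 20 blood, 6 of 18 muscle, 10 of 20 liver and gut, 23 of 30 neuronal, and 5 of 19 pluripotency and germ line genes were present. For all protein-coding genes the share was 56.7%. The word bivalent is therefore not used for the whole set. The tags of the histone marks were not analysed here, and the part that the breadth of the H3K27me3 regions plays was not tested.

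The regions overlapped marks of active transcription more than regions with H3K27me3 alone. H3K36me3, which marks transcribed gene bodies, touched 53.7% of the regions (52.9 to 54.5), compared with 76.3% of H3K4me3-only and 20.6% of H3K27me3-only segments. By bases the shares were 36.9%, 84.1% and 5.80%. Of the regions holding a TSS, 71.1% overlapped H3K36me3. All 37 regions with a housekeeping gene, 30 of 32 with a fibroblast gene, 22 of 26 with a Polycomb subunit gene, 4 of 5 with Hox genes and 61 of 93 with a signalling gene overlapped it, as did 25 of 75 with a non-Hox homeobox gene and 5 of 26 with a neuronal gene. Lamina domains, parts of the genome at the nuclear periphery, touched 22.5% of the regions, against 13.2% of H3K4me3-only and 37.1% of H3K27me3-only segments.

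In regions rich in both marks the input was denser than either ChIP library. Density was 1.39 times the genome average in the wild type, 1.43 times in the knock-out and 1.81 times in the input (553274, 531450 and 879076 tags). In H3K4me3-only segments the 3 libraries were nearly level at 1.37, 1.35 and 1.33 times, and in H3K27me3-only segments at 1.06, 1.07 and 1.04 times. The wild-type over input ratio was thus 0.770 (0.768 to 0.773) in regions rich in both marks, against 1.03 and 1.01 in these classes. For the knock-out it was 0.792 (0.789 to 0.794). The ratio of the wild-type to the knock-out library was 0.973 (0.970 to 0.977). The ChIP libraries were more duplicated than the input, with 2.92 (wild type) and 3.45 (knock-out) uniquely mapped reads per tag against 1.32. Of their reads 68.1% and 66.3% mapped uniquely, against 45.1% in the input. The regions rich in both marks were below H3K4me3-only and below H3K27me3-only segments in wild-type over input on 20 of 20 chromosomes, with values from 0.608 on chromosome 17 to 0.892 on chromosome 12.

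**Figure D2:**
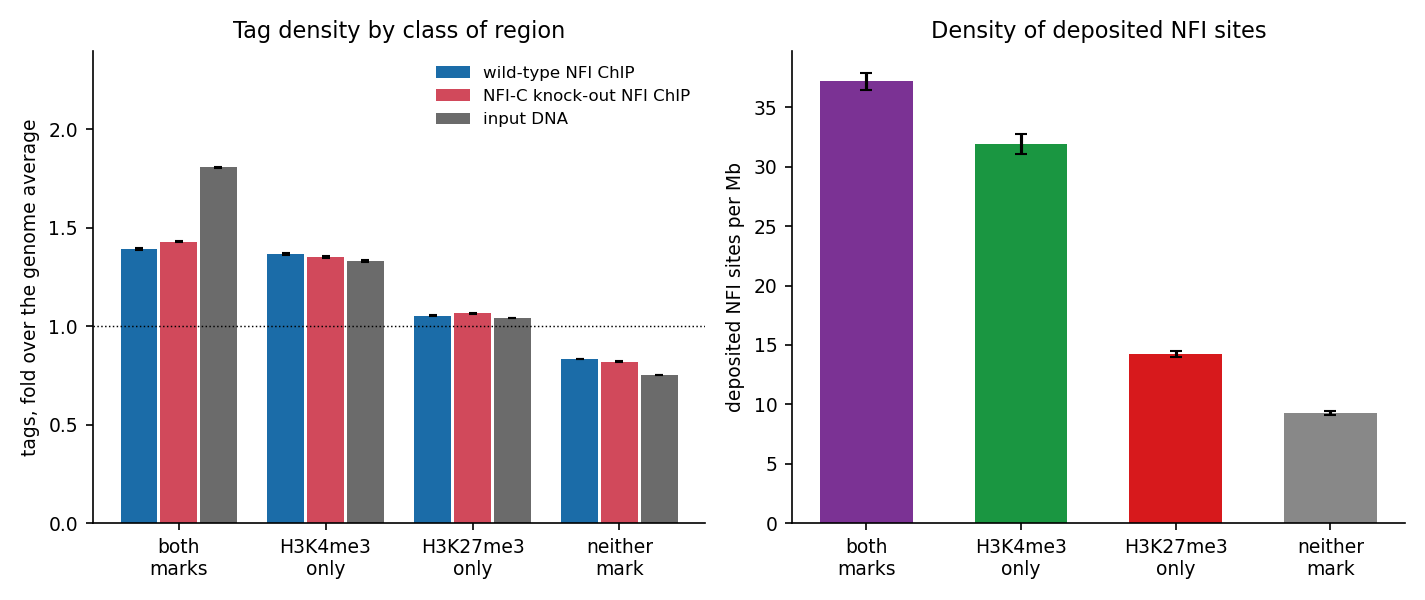
Left, tags in each class of region (fold over the genome average, vertical axis) for the wild-type NFI ChIP, the NFI-C knock-out NFI ChIP and the input, and right, deposited NFI sites per Mb, both with 95% Poisson intervals as bars. In regions rich in both marks the input (1.81) exceeds both ChIP libraries (1.39 and 1.43), and the site density is the highest of the 4 classes at 37.2 per Mb.

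The same pattern was present in single regions. Of 13934 regions with at least 10 tags in both libraries together, 4173 (29.9%) had at least 2-fold fewer wild-type than input tags after scaling, against 13.5% of all segments, and 326 (2.34%) had at least 2-fold more, against 3.32%. With every uniquely mapped tag counted, 526 regions had at least 2-fold more. For the knock-out ChIP the numbers were 4091 of 13916 (29.4%, against 13.6%) and 372 (2.67%, against 3.56%). The median wild-type over input ratio per region was 0.734, with quartiles of 0.443 and 1.06, and it was 0.958 over all segments. Between the ChIP libraries, 767 of 13120 regions (5.85%, against 5.06%) had at least 2-fold more wild-type tags and 871 (6.64%, against 4.94%) at least 2-fold more knock-out tags.

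The low ratio lay at the TSS. Within 1 kb of a TSS the input density was 5.59 times the genome average and that of the ChIP libraries 1.70 (wild type) and 1.85 times (knock-out), a wild-type over input ratio of 0.305 (0.302 to 0.307). Farther than 1 kb from a TSS the libraries were level, at 1.36, 1.38 and 1.36 times, with a ratio of 0.995 (0.991 to 0.998). Around 12214 outermost TSS the input was at 10.3 times the genome average in the 250 bp upstream and at 14.6 times in the 250 bp downstream. The wild type was at 2.01 and 1.81 times there, and the knock-out at 2.29 and 2.13 times. Regions without a TSS had a wild-type over input ratio of 1.02 (1.01 to 1.03) and those with a TSS 0.685 (0.682 to 0.688). Compared with H3K4me3-only segments, the wild-type over input ratio was 0.729 times as high in regions holding a TSS (0.723 to 0.734) and 0.912 times as high in regions without (0.904 to 0.920). The share of the bases within 1 kb of a TSS was larger in regions rich in both marks, at 31.9 of 303.5 Mb against 10.8 of 177.3 Mb with H3K4me3 only.

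**Figure D3:**
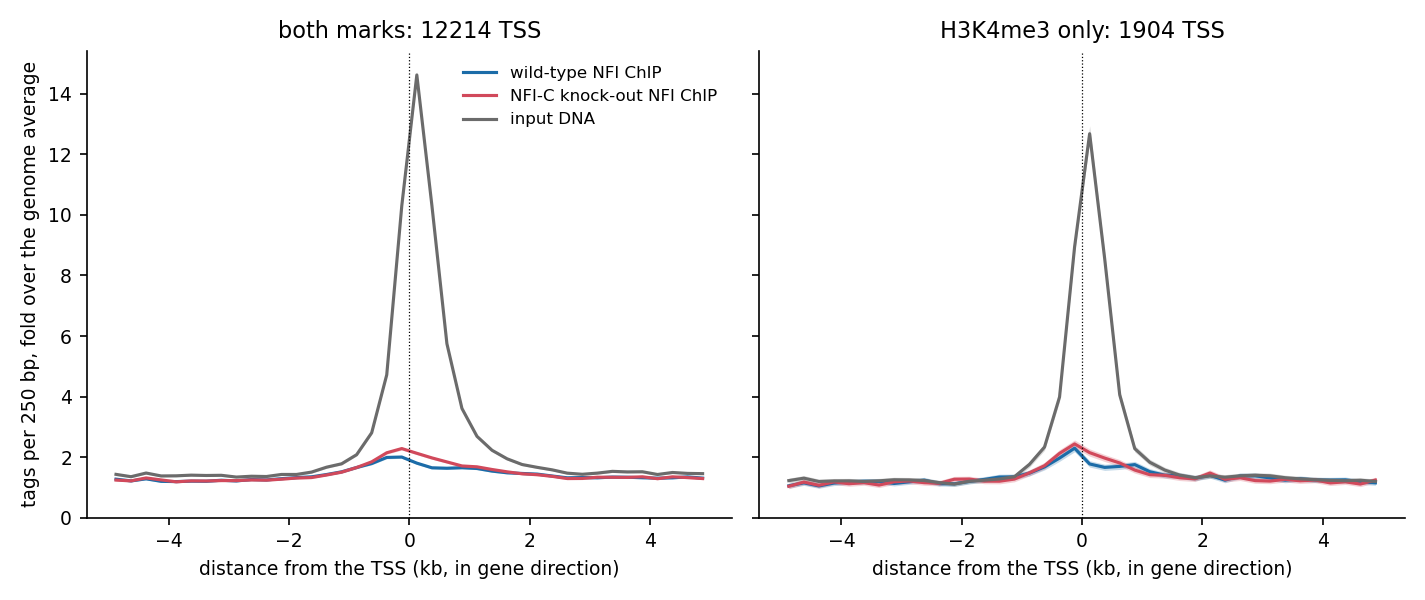
Tags per 250 bp (fold over the genome average, vertical axis) against the distance from the outermost TSS (kb in gene direction, horizontal axis), for 12214 TSS in regions rich in both marks (left) and 1904 TSS in regions with H3K4me3 only (right), with 95% Poisson intervals as shading. The input peaks at 14.6 times (left) and 12.7 times (right) just downstream of the TSS, while the highest ChIP value is 2.44 times, in the knock-out on the right.

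The input density moved with the G and C content of the DNA, and so did the ratio. In 1 kb windows of the regions rich in both marks the wild-type over input ratio went from 1.28 (1.26 to 1.31) below 35% G and C to 0.964 at 45 to 50%, 0.341 at 55 to 60% and 0.0738 (0.0718 to 0.0759) at 65% or more. The input went from 1.21 to 16.03 times the genome average over the same windows, whereas the wild type stayed between 1.18 and 1.56 times. H3K4me3-only windows went from 1.34 to 0.0787, with 0.798 against 0.712 at 50 to 55% and 0.450 (0.437 to 0.464) against 0.341 (0.337 to 0.346) at 55 to 60%. When the windows of the other classes were weighted to the G and C content of the regions rich in both marks, the wild-type over input ratio of the latter was 0.942 times that of H3K4me3-only and 0.890 times that of H3K27me3-only windows, in place of 0.750 and 0.761 unweighted. Among whole regions of 55 to 65% G and C the corresponding values were lower, at 0.547 and 0.468. The wild-type over knock-out ratio also moved, from 1.04 (1.02 to 1.07) in the poorest to 0.728 (0.702 to 0.755) in the richest windows. Whether fragmentation, amplification or mapping contributed to this relation was not tested.

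**Figure D4:**
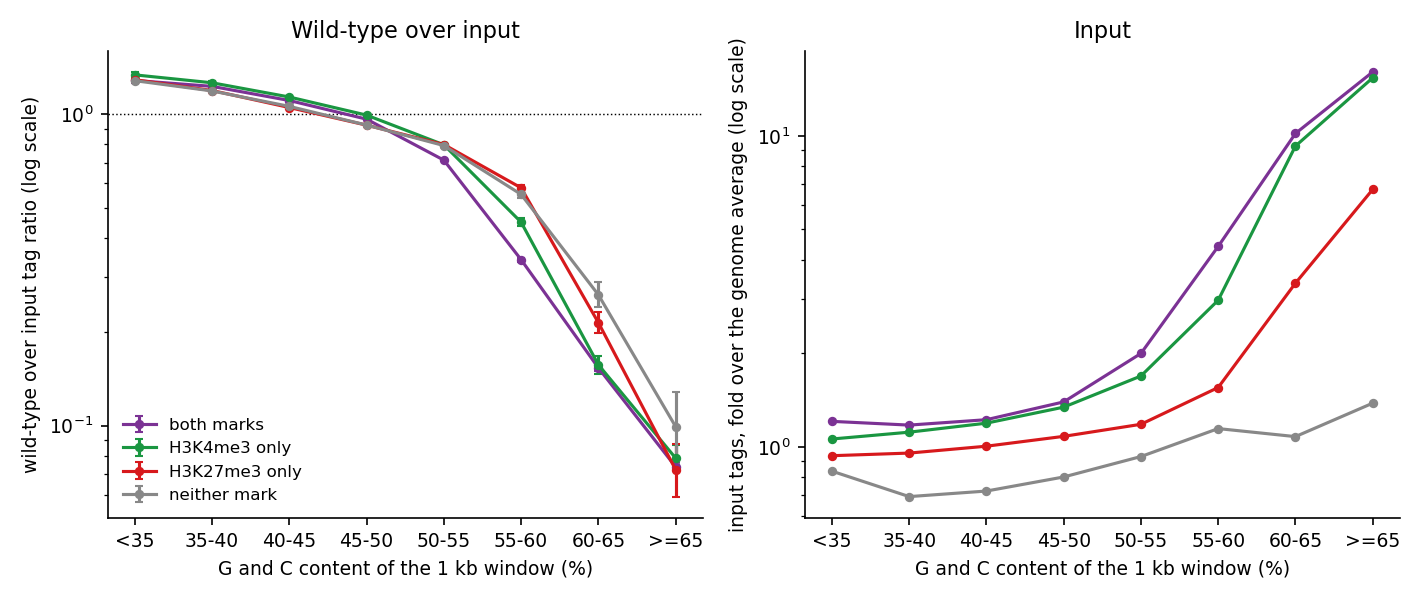
Wild-type over input tag ratio (left, log scale) and input tags as fold over the genome average (right, log scale) in 1 kb windows against their G and C content (%), by class of region, with 95% intervals as bars on the left. In regions rich in both marks the ratio goes from 1.28 in the poorest to 0.0738 in the richest windows while the input goes from 1.21 to 16.03 times the genome average.

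Promoter stretches from 2 regions at the low end of the ratio are shown as examples. Printed below are the 120 bases upstream of the TSS, on the strand of the gene, of the 2 genes whose regions had the lowest upper bound of the wild-type over input ratio, with CpG in capitals.
Trrap, chr5:145528841-145528960, plus strand: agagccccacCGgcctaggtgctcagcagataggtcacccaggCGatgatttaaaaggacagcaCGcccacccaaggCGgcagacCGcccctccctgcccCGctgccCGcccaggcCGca
Jhdm1d, chr6:39156789-39156908, minus strand: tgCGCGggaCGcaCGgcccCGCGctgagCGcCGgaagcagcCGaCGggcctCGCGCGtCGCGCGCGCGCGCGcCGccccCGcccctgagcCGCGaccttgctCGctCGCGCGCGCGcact

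The Trrap stretch has 8 CpG and 68.3% G and C, and the Jhdm1d stretch 30 CpG and 83.3%. Their whole regions are less rich, with 59.3% (Trrap) and 52.98% (Jhdm1d) G and C. The region at Trrap, which encodes an adaptor of histone acetyltransferase complexes, spans 2258 bp and had 0, 4 and 53 tags, again as wild type, knock-out and input. The upper bound of the wild-type over input ratio was 0.0882 there. The region at Jhdm1d, a histone demethylase gene, spans 4889 bp and had 2, 15 and 90 tags. The regions at Syt9 (a synaptotagmin gene) and Lonrf3 both had 0 tags in either ChIP library and 41 input tags, with an upper bound of the wild-type over input ratio of 0.115. The regions at Wnk2 (a kinase gene), Dusp9 (a phosphatase gene) and Nagpa had 0 wild-type tags, 5, 7 and 6 knock-out tags and 38, 37 and 35 input tags. The region at Aff4, a component of the super elongation complex, had 1, 10 and 53 tags, and that at Zmynd19 had 2, 3 and 68. These 9 regions hold a TSS, are 2258 to 4962 bp long and hold no deposited NFI site. The sites were called on the same wild-type tags that ranked these regions as low, so the lack of a site follows from the choice. The other of the 10 regions with the lowest upper bound, on chromosome 17 with Pgk2 as the nearest gene, holds no TSS, spans 5812 bp and holds 4 sites, with 548, 599 and 6424 tags.

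At the other end of the ratio the regions named by the same ranking were mostly without a TSS. The region on chromosome 13 from 29226068 to 29229649, whose nearest gene is Cdkal1, had 21, 4 and 0 tags in the same order, with a lower bound of the wild-type over input ratio of 6.37. The region on chromosome 2 from 45266995 to 45270796, whose nearest gene is Zeb2, had 23, 20 and 5 tags, and an Oxr1 region 30, 16 and 8. A region near Dennd4a on chromosome 9 had 14, 2 and 2. Of the 10 regions with the highest lower bound of the ratio, 7 overlapped no protein-coding gene, and 1 of the 10 (Rnf157, a ubiquitin ligase gene) held a TSS. Of all regions rich in both marks, 23.0% overlapped no protein-coding gene and 66.1% held a TSS.

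In spite of the low ratio, deposited NFI sites were denser in regions rich in both marks than in any other class. The regions held 11283 of the 39807 deposited sites (28.3%), at 37.2 per Mb (36.5 to 37.9), against 31.9 (31.1 to 32.7) with H3K4me3 only, 14.3 with H3K27me3 only and 9.25 (9.09 to 9.41) with neither. Sites with 5 or more wild-type tags in 300 bp, 13.7% of the sites in these regions, gave 5.10 per Mb. All deposited sites together were denser than in H3K4me3-only segments on 19 of 20 chromosomes and denser than in H3K27me3-only segments on all 20. Relative to input tags the order was different, with 12.8 sites per 1000 input tags, 14.95 with H3K4me3 only and 8.54 with H3K27me3 only. Weighted to equal G and C content, the density was 1.12 times that of H3K4me3-only and 2.69 times that of H3K27me3-only windows. In the 250 bp upstream of the TSS the density was 130 per Mb (118 to 144), against 134 (104 to 172) with H3K4me3 only, and in the 250 bp downstream 89.7 per Mb against 120. In regions rich in both marks it was 69.3 within 1 kb against 33.4 farther away.

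A deposited site was held by 6130 of the regions, or 42.8% (42.0 to 43.6), against 35.9% of all segments. Counting only sites with 5 or more wild-type tags in 300 bp, the share was 8.88%. No site lay in 8196 regions, 1 site in 3664, 2 in 1336 and 6 or more in 181. The share depended on length, from 11.7% (9.15 to 14.6) of regions under 2 kb to 89.6% (87.9 to 91.2) of those over 50 kb, and at each length it was above the share of H3K4me3-only segments (4.10% and 86.0%) and of H3K27me3-only segments (1.59% and 67.0%). Regions of 10 to 20 kb gave 41.4% (39.7 to 43.1), 35.7% and 18.6% in the same order. Over 50 kb the interval overlapped that of H3K4me3-only segments (83.5 to 88.3).

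**Figure D5:**
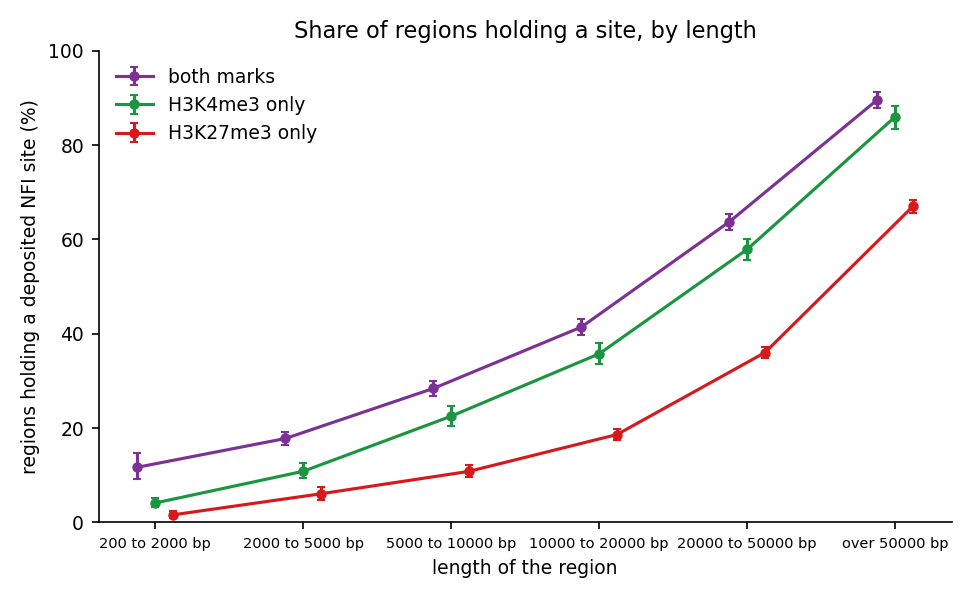
Share of regions that hold a deposited NFI site (%, vertical axis) by length of the region (horizontal axis), for regions rich in both marks and for segments with H3K4me3 only or H3K27me3 only, with 95% exact binomial intervals as bars. At every length the regions rich in both marks are highest, from 11.7% under 2 kb to 89.6% over 50 kb.

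At the sites themselves, the knock-out and the input were both above the genome average. Sites in regions rich in both marks had a mean of 3.44, 1.19 and 1.62 tags in 300 bp (wild type, knock-out, input). These are 8.77, 3.24 and 3.38 times the genome average, of which the first was fixed by the choice of sites in the wild-type ChIP. Knock-out over input at the sites was 0.960 (0.938 to 0.981), against 1.35 (1.30 to 1.41) with H3K4me3 only and 1.34 (1.29 to 1.39) with H3K27me3 only. Of the sites, 672 had 5 or more input tags, and 471 of these lay within 1 kb of a TSS. Among the 94.0% of sites with fewer than 5 input tags the ratio was 1.55 (1.51 to 1.60), against 1.58 (1.51 to 1.65) and 1.36 (1.31 to 1.41), a comparison that itself selects for low input. Of all sites in these regions, 19.6% lay within 1 kb of a TSS, compared with 9.80% and 2.29%. The knock-out ChIP had 0 tags at 48.2% of the sites, against 52.9% with H3K4me3 only, 62.5% with H3K27me3 only and 66.5% with neither mark. The input had 0 tags at 43.8% of the sites in regions rich in both marks, against 50.05%, 57.9% and 60.5% in the other classes in the same order. Its share thus rose across the classes as that of the knock-out did. At 12.5% of the sites in regions rich in both marks the knock-out had more tags than the wild type after scaling.

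Regions mostly covered by H3K36me3 held more sites per Mb and had a lower wild-type over input ratio than those without it. Where most of the bases were H3K36me3-rich (5264 regions), there were 44.1 sites per Mb (42.9 to 45.3) and the wild-type over input ratio was 0.687 (0.683 to 0.690). Where none were (6632 regions), the values were 32.6 per Mb (31.6 to 33.6) and 0.905 (0.900 to 0.910). Densities in the order wild type, knock-out, input were 1.504, 1.548 and 2.19 times the genome average in the first and 1.32, 1.35 and 1.45 times in the second. A TSS lay in 86.4% of the first and in 41.3% of the second. Regions mostly inside lamina domains (2999) had 32.9 sites per Mb (31.5 to 34.4) and a ratio of 0.885 (0.878 to 0.892), and the other regions had 38.2 per Mb and 0.748.

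Ratio and site density were also taken by gene group. The 32 regions with a fibroblast matrix or surface gene had a wild-type over input ratio of 1.02 (0.981 to 1.07) and 56.1 sites per Mb, and 27 of them (84.4%) held a site, against 42.8% of all regions rich in both marks and 89.6% of those over 50 kb. The median ratio over these 32 regions was 0.979, against 0.734 over all regions rich in both marks. Their median length was 54222 bp against 11772 bp, and the ratio over all regions was 0.395 (0.389 to 0.401) at 2 to 5 kb and 0.928 (0.923 to 0.933) over 50 kb. The region of Thbs1, which encodes the matrix protein thrombospondin 1, had 604, 495 and 588 tags (wild type, knock-out, input) over 262848 bp and 17 sites. That of Cd44, the hyaluronan receptor gene, had 442, 340 and 412 tags and 10 sites, and that of Col1a2, a type I collagen gene, 291, 235 and 319 tags and 10 sites. In all of these the wild-type ChIP exceeded the input after scaling, with ratios of 1.26 (1.12 to 1.41), 1.31 (1.15 to 1.51) and 1.12 (0.949 to 1.31), of which the last does not exclude 1.

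The 37 regions with housekeeping genes had 60.6 sites per Mb, against 38.5 over all regions holding a TSS, 25 of them (67.6%, against 42.5%) held a site, and the wild-type over input ratio was 0.598 (0.564 to 0.633) with a median of 0.574. The region with Rps2, a ribosomal protein gene, had 164, 143 and 384 tags and 1 site. The region with Pkm2, which encodes pyruvate kinase, had 121, 102 and 162 tags and 5 sites. The region with Polr2a, the gene of the largest RNA polymerase II subunit, had 90, 81 and 214 tags and 2 sites. Regions with genes of mesenchymal transcription factors had 43.4 sites per Mb and a ratio of 0.745 (0.709 to 0.782), and 20 of 26 held a site. The 2 regions of Runx1, a regulator of blood and mesenchymal cells, had ratios of 0.951 (0.822 to 1.10) and 0.765 (0.636 to 0.918) with 5 and 4 sites, and that of Prrx1, a homeobox factor of mesenchyme, 1.00 (0.840 to 1.20) with 5. The region with Tbx15, a T-box factor gene, held 11 sites and had 231, 245 and 225 tags, with a wild-type over input ratio of 1.26 (1.04 to 1.52).

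The 5 regions with Hox genes had a ratio of 0.616 (0.570 to 0.665) and 49.9 sites per Mb. Non-Hox homeobox genes had a ratio of 0.614 (0.591 to 0.637), 29.4 sites per Mb and a site in 37 of 75 regions, and other developmental transcription factor genes 0.608 (0.586 to 0.631), 31.7 per Mb and 40 of 77. Signalling genes had 0.675 (0.653 to 0.696), 33.4 per Mb and 55 of 93, and Polycomb subunit genes 0.579 (0.545 to 0.614), 38.8 per Mb and 12 of 26. Regions with neuronal genes had a ratio of 0.581 (0.526 to 0.642) and a site in 6 of 26. Regions of all TSS had a ratio of 0.685, 38.5 sites per Mb and a site in 42.5%. The groups differ in length, so neither their shares with a site nor their ratios are matched, and differences between groups were not tested.

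The Hox genes, which set position along the body axis, lay in 5 regions that all held deposited sites, with a median length of 123128 bp (89.6% of all regions over 50 kb held a site). The 4 with the most wild-type tags are described. The Hoxa cluster region on chromosome 6 spans 127434 bp and had 275, 280 and 535 tags with 7 sites. The Hoxb region had 227, 168 and 390 tags with 9 sites, the Hoxc region 266, 183 and 462 tags with 8 sites, and the Hoxd region 178, 176 and 518 tags with 2 sites. The wild-type over knock-out ratio was 1.36 (1.12 to 1.65) at Hoxc and 1.26 (1.03 to 1.55) at Hoxb, whereas the intervals at Hoxa (0.918, 0.775 to 1.09) and Hoxd (0.945, 0.763 to 1.17) include 1. Over all 5 regions it was 1.07 (0.977 to 1.17), and the 4 intervals were not adjusted for their number.

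The genes of the NFI family itself lay in 5 regions that all held sites, 16 in total or 33.1 per Mb, against 37.2 over all regions rich in both marks. Of these 5 regions, 4 are over 50 kb, a length at which 89.6% of all regions held a site. The Nfib region had 194, 206 and 235 tags with 6 sites, and the 2 Nfia regions had 183, 209 and 248 tags with 2 sites and 119, 124 and 147 tags with 3 sites. The Nfic region on chromosome 10, from 80741655 to 80897784, had 274, 235 and 794 tags with 4 sites and also holds TSS of other genes. The Nfix region had 70, 68 and 148 tags with 1 site. All 6 annotated Nfic TSS lay in the Nfic region, while 5 of the 8 Nfix TSS lay in segments with H3K4me3 only. The Nfic tags in the library labelled knock-out do not check that label, since an insertion need not remove tags.

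Regions with many sites were of different kinds. The region with the most, 66 sites, spans 76639 bp on chromosome 11 from 3028420 to 3105058 and holds the TSS of Eif4enif1, an eIF4E transporter gene, and Sfi1, a centrosomal protein gene. It had 2871, 3147 and 3770 tags, which is 28.6, 33.5 and 30.7 times the genome average, and 64 of its sites had 5 or more input tags. The next region, 188547 bp on chromosome 1 with Hjurp and Trpm8, held 47 sites at 3.08, 3.51 and 3.62 times the genome average. The Mid1 region on chromosome X held 23 sites at 2.44, 1.69 and 3.29 times. The regions of Thbs1 and Npas3 (17 sites each), Slit3 (16) and Ebf1 (14) were at 1.24 to 1.76 times in the wild-type ChIP and 1.10 to 1.40 times in the input. Of the other regions with 14 sites, that of Pigc was at 2.00 times in the wild type and 1.44 in the input, that of Cops8 and Cxcr7 at 1.25 and 1.29, and that of Zdhhc22 at 1.45 and 1.85. Without the Eif4enif1 and Hjurp regions the site density was 36.8 per Mb in place of 37.2.

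The Eif4enif1 region was among 24 regions at 10-fold or more of the genome average in each library. These held 91 sites, 1.68% of the wild-type, 1.84% of the knock-out and 2.06% of the input tags of all regions rich in both marks, and 5 of them held a TSS. A 215 bp region in Cdk5rap2 had 181, 189 and 204 tags and a 5074 bp region at Gm10800 had 1544, 1596 and 1791. Their median wild-type over input ratio was 0.913. A region on chromosome 17 from 39979950 to 39985761, with 64.95% G and C and Pgk2 as the nearest gene, is also among them. Without these 24 regions the wild-type over input ratio of all others was 0.773.

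Single regions differed between the ChIP libraries in either direction. The regions at Ccdc61, Mtr (methionine synthase), Mapkapk5 (a kinase) and Rpgr had 13, 12, 11 and 11 wild-type tags and no knock-out tag, and that at Ubl7 had 16 and 1. The lower bound of the wild-type over knock-out ratio was 2.85 at Ccdc61 and 2.60 at Mtr. In the other direction Mycbpap had 0 wild-type and 12 knock-out tags, a region near Lyplal1 on chromosome 1 had 1 and 16, and that of Lancl3 had 2 and 19. These regions are the extremes of 13120.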

How the data were processed

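The authors mapped the reads of the 3 libraries to mm9 and deposited them as mapped reads, together with a list of NFI sites called on the wild-type ChIP and tables of region boundaries for the histone marks and lamina domains. The deposited site list came from a peak search with a 300 bp window, a threshold of 5 tags and 1 tag per position at most. As counted here, only 13.7% of the sites in regions rich in both marks reached 5 wild-type tags in 300 bp. Most sites thus lie below that threshold by this count, and the reason was not tested. Counts were made here from the deposited reads, as uniquely mapped tags with at most 1 per position and strand, which gave 3350071 tags (wild type), 3132004 (knock-out) and 4100449 (input). A fold is tags per base over the library's genome average, and a ratio is that of 2 libraries scaled to their totals. Intervals are at the 95% level (Poisson, exact binomial, and log-normal for ratios of ratios) and cover counting error only, since each condition had 1 library. Where every uniquely mapped tag was counted, reads copied by PCR are not independent molecules. Methods were tested on simulated data. Genes were taken from GENCODE vM1, letters were searched in mm9, and regions were named by protein-coding genes only. A region entered a count of 2-fold differences with 10 or more tags in both libraries together. Named regions are those with the most sites, the extreme bounds of the ratios, the greatest length, or the most wild-type tags in a gene list. The regions and gene lists were chosen with earlier results of these data known. Python 3.11.15, numpy 2.4.6, pandas 2.3.3, scipy 1.17.1 and matplotlib 3.10.9 were used. A site that the naming rule selects is not reported here.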

Additional observations from a re-analysis of the deposited data

How the results depend on the processing

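No paired analysis was possible because each group had 1 library. Of 71 alternatives to 12 results, 35 stayed within counting error (or within 1.5 times, for counts) and 36 moved. A change of direction was defined for ratios only, not for shares, densities or counts, and 0 ratios changed direction. Counting every uniquely mapped tag gave 0.6546 for wild type over input, 0.7061 for knock-out over input and 0.9271 for wild type over knock-out, 0.624 and 0.6337 for wild type over input against H3K4me3-only and H3K27me3-only segments, 0.607 against H3K4me3 only for regions with a TSS, and 526 regions at 2-fold or more. Tags without mismatch gave 0.7505, 0.7821, 0.9596, 0.7367, 0.744 and 0.7109 in that order. The first run alone gave 0.7483, 0.7741 and 0.9667. Without the 1% of regions densest in input, wild type over input was 0.7781, knock-out over input 0.7981 and the value against H3K27me3 only 0.7674. Regions of 55 to 65% G and C alone gave 0.5474 and 0.4675 against H3K4me3 only and H3K27me3 only, and 0.5877 with a TSS. Among alternatives chosen after seeing the data, weighting to equal G and C gave 0.9417 and 0.89, bases beyond 1 kb from a TSS 0.9947, and leaving out regions at 10-fold or more 0.7733 for wild type over input, and 10 to 20 kb regions alone a share with a site of 41.42%. That share was 40.73% for sites with fewer than 5 input tags, 39.97% for sites above input and 8.879% for sites with 5 or more wild-type tags, and the densities were 34.96 and 5.097 per Mb for the first and the last of these. The share with a TSS was 60.46% for outermost TSS and 69.52% for all annotated genes. Palindrome matches numbered 46.02 per Mb with at most 2 mismatches, 2.712 with at most 1, and 1826 for an arm alone.

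With 1 library per condition, differences between genotypes cannot be told apart from differences between libraries. Most sites had few tags (median 3 wild-type), so single sites are imprecise.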
